A study of Drosophila melanogaster with 3 samples.

Results

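Binding sites of the Drosophila melanogaster protein CG6254 that lie just outside promoters were described here: peaks whose summit is more than 500 and at most 1000 bp from the nearest transcription start site (TSS). A peak is a stretch of DNA recovered more often with the protein than in a control, and its summit is the position of highest recovery. Members were chosen by distance alone, from the annotated TSSs of every gene type with mobile elements left out. They numbered 482 of the 4426 peaks in the deposited reproducible list, or 10.9% (exact 95% interval 9.99 to 11.8%). The rest were 1888 promoter peaks within 500 bp of a TSS (42.7%) and 2056 distal peaks beyond 1000 bp (46.5%).

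The study used chromatin immunoprecipitation with sequencing (ChIP-seq) on 1 group of 3 biological replicates. The material was whole embryos of mixed sex, 0 to 14 h old, from a transgenic line that stably expresses CG6254 with GFP at its C terminus. Chromatin sheared by sonication to 200 to 800 bp was precipitated with an antibody against GFP. No untagged or mock embryos were analysed here as samples, and all peak lists share 1 control alignment, so that an error in it would recur in every replicate. Whole embryos mix many cell types, so that strong binding in few cells and weak binding in many cannot be told apart. The lists hold no read counts and depth is unknown. The list taken from each replicate alone held its 4426 strongest peaks, and matching means a summit within 200 bp. The intervals printed here cover counting error only.

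Zinc finger proteins such as CG6254 read short DNA words through repeated finger domains. DNA just upstream of a TSS carries the core promoter and proximal regulatory elements. DNA just downstream runs into the 5′ untranslated region (UTR), the first coding exons and the first intron, and first introns of flies often hold enhancers. Genes with alternative promoters place some of their own introns upstream of a later TSS, so that "upstream" is not the same as "outside the gene".

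Many of the strongest members held the same short word at their summit. ACAGGGTG was the 8-letter word most enriched at summits of the peaks with ranks up to 443 that are not members, and its first 7 letters, ACAGGGT, were searched on both strands in the 101 bp centred on each member summit. The search was chosen after the sequences of the strongest members had been seen. Below are 25-base stretches of the dm6 genome (RefSeq copy of the assembly), 5′ to 3′ on the strand of the word, for 12 of the 27 members with a copy in that window. The first 10 are the strongest of the 27. Actn, the alpha-actinin gene, and acj6, a POU-domain factor gene whose member has 2 copies, were added after their values were seen. Stretches are named by the gene of the nearest TSS and show the word with the bases beside it. Capitals mark the 7-letter word.
larp, chr3R:28326804-28326828, minus strand: gatacagatACAGGGTgccctgcgc
Tm1, chr3R:15291869-15291893, plus strand: ggctcagatACAGGGTggttccggc
Abd-B, chr3R:16933577-16933601, plus strand: ttgaatttcACAGGGTgcttgcggt
asRNA:CR46005, chr3L:6124796-6124820, plus strand: ttatcacttACAGGGTacatttccg
Trx2, chr2L:9614049-9614073, plus strand: tgctatagcACAGGGTgtgctctcc
His2Av, chr3R:26867557-26867581, plus strand: accacactaACAGGGTgcccgcctt
RasGAP1, chr3L:9855929-9855953, minus strand: ataaacaaaACAGGGTtttttattg
fz2, chr3L:19171595-19171619, plus strand: ggtgggaatACAGGGTgccctactc
Xrp1, chr3R:18924763-18924787, plus strand: ttgcacaatACAGGGTgttctatgt
CdGAPr, chr2L:19791204-19791228, plus strand: gtggctgccACAGGGTgacaaagtc
Actn, chrX:2037269-2037293, minus strand: atacgccatACAGGGTgcccctttt
acj6, chrX:15379864-15379888, plus strand: aaatcagctACAGGGTgtcccgatc
acj6, chrX:15379894-15379918, plus strand: gccaggcttACAGGGTgccaccttt

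For contrast, the whole 101 bp windows of a strong member with the word and of one without it follow. Capitals in the first mark the 8-letter word, which is on the opposite strand and so appears as its reverse complement. The second is rich in A and T and holds no copy of either word.
larp, chr3R:28326775-28326875, plus strand: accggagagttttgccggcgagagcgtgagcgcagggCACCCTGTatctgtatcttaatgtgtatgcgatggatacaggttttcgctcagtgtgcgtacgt
Lk6, chr3R:11761004-11761104, plus strand: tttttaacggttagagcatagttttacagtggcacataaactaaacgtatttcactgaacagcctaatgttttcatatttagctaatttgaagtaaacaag

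The 7-letter word was present at 27 of 482 member summits (5.60%, exact 95% interval 3.72 to 8.05%), against 0.830% of their flanks centred 350 bp away. Of all 101 bp windows in the DNA 500 to 1000 bp from a TSS, 0.50% hold it. Taken alone, the replicates had it at 5.52%, 5.45% and 4.73% of their members. The full 8 letters were present at 21 members (4.36%, interval 2.72 to 6.58%) and in 0 flanks, against 0.154% of all such windows. The 7-letter counts include these, since both words start alike.

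The word was most frequent at the top of the list. Among the 10 members ranked 1 to 100 by deposited signal, 6 held it (60.0%, interval 26.2 to 87.8%). Of the 42 members ranked 101 to 443 it was in 4 (9.52%), of the 71 ranked 444 to 1000 in 5 (7.04%), of the 107 ranked 1001 to 2000 in 8 (7.48%), and of the 252 members ranked 2001 to 4426 in 4 (1.59%). Promoter peaks ranked 1 to 100 held it in 58.1% of 74 cases and distal ones in 43.8% of 16, within the wide interval of the members. When 1 letter of ACAGGGTG was allowed to differ, 8 of the 10 top members held a copy (80.0%), against 4.50% of all windows. Over all 482 members this looser word was at 8.71% of summits and 3.84% of flanks, and at ranks 2001 to 4426 it was at 4.76% of summits, close to the share of all windows. The 2 without were those nearest Lk6 and lncRNA:CR44619.

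**Figure D1:**
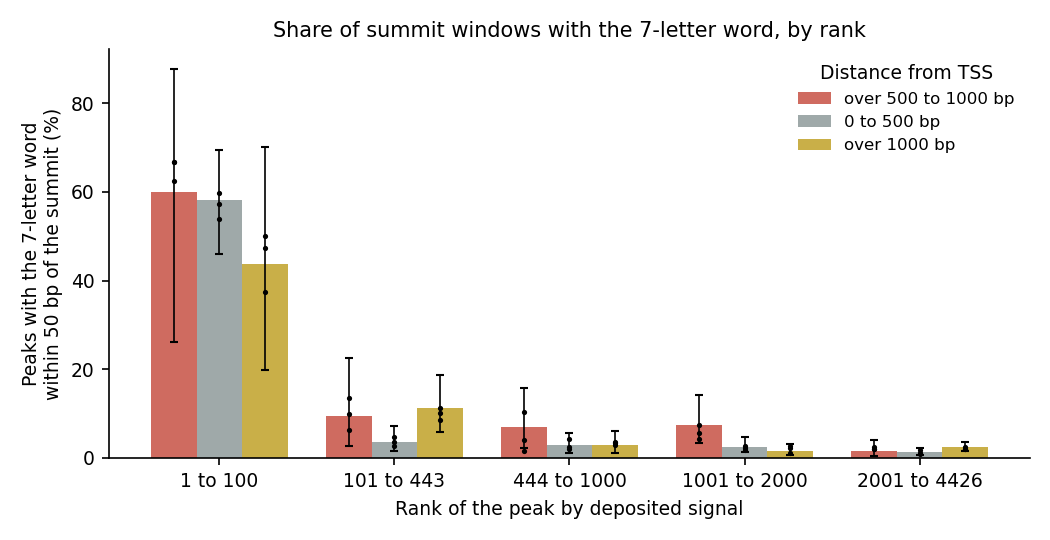
Share of peaks (%) with the 7-letter word within 50 bp of the summit, by rank of deposited signal, for members, promoter peaks and distal peaks; bars are the reproducible list with exact 95% intervals, dots the 3 replicates taken alone. In members the bar stands at 60.0% for ranks 1 to 100, between 7.04% and 9.52% for ranks 101 to 2000, and at 1.59% for ranks 2001 to 4426.

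The word sat close to the summit. The 28 copies in member windows lay a median of 15.0 bp from it. Counted outward over all members, 20 copies were within 25 bp, 33 within 100 bp and 46 within 300 bp. DNA 500 to 1000 bp from a TSS holds 712 copies in all, of which 32 (4.49%, interval 3.09 to 6.29%) were within 50 bp of a reproducible summit. That share was 8.82% of copies in promoter DNA and 1.18% in distal DNA, so most copies at any distance had no peak. A match is a description and not a site or a cause.

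The 27 members with the word are described here beside the other 455, in 1 list and with no test. Their median signal was 443.188, against 230.154 in members without it. The summit window had a mean GC content of 43.5% ± 8.65 with the word (SD over 27 peaks) and 34.9% ± 9.84 without it (SD over 455 peaks). The flanks had 42.1% ± 7.59 with the word and 42.9% ± 7.44 without it, so the summits with the word were not poorer in GC than their flanks. A match in all 3 replicates was found for 23 of the 27 (85.2%) and for 54.7% of those without. Stronger peaks match more readily by definition, so these shares are not separate from the signals. Of the 27, 17 were upstream and 10 downstream, and of the other 455, 208 were upstream and 247 downstream.

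The strongest members lay in or near genes of diverse function, and several of them were in intergenic DNA. The first was in an intron of larp, which encodes an RNA-binding regulator of translation, 561 bp upstream of a TSS (dm6, chr3R:28326251-28327187). Its deposited signal was 1362.22, 1853.44 and 1499.65 in replicates 1, 2 and 3, which placed it at ranks 30, 32 and 30, and 4738.65 in the reproducible list, at rank 32. It was among the 50 strongest peaks of every replicate, and at 937 bp it was the widest member. The next, at rank 43 with a signal of 3324.68, was on chromosome 4 (chr4:458510-459199), 928 bp upstream of the antisense RNA gene asRNA:CR45126 in intergenic DNA, and ranked 46, 44 and 44 in the replicates.

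Several of the following members were inside well-known genes. Tm1 encodes tropomyosin, which binds along actin filaments, and its member (chr3R:15291675-15292178) lay 931 bp downstream of a TSS, in an intron. It ranked 56, 49 and 62 in the replicates and 51 in the reproducible list, with a signal of 2763.97. Abd-B, the Hox gene that patterns the posterior abdomen, had a member in a 5′ UTR 664 bp downstream (chr3R:16933338-16933892), at ranks 51, 55 and 57 in the replicates and a reproducible signal of 2619.44. The ranks of both stayed within 13 places of each other across replicates.

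Trx2, a thioredoxin that keeps protein thiols reduced, had a member in an intron 657 bp downstream, with ranks of 62, 63 and 75 in the replicates. His2Av, a histone H2A variant involved in transcription and DNA repair, had one in an intron 648 bp downstream of its first TSS, with ranks of 75, 82 and 109. A member 574 bp upstream of asRNA:CR46005 lay in a coding exon of l(3)mbn, with ranks of 60, 62 and 74. Coding exons were otherwise rare hosts, with 7 members in all. The strongest downstream intergenic member was 801 bp past snoRNA:Psi28S-2149, a small nucleolar RNA named for a pseudouridine it guides in 28S rRNA, at a signal of 1633.35. The nearest coding gene there was RpS7, a ribosomal protein gene, at 2569 bp.

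Below these came members near Lk6, a kinase of the translation factor eIF4E (rank 93, 975 bp upstream, intron), and lncRNA:CR44619 (rank 99, 545 bp upstream). The rest of the 20 strongest that were matched in every replicate ranked 112 to 161. Among them, lncRNA:CR46035 lies within osa, which encodes a subunit of a Brahma chromatin remodeller. RasGAP1, which turns off Ras, had a member at a signal of 1081.83 in intergenic DNA 682 bp upstream. HmgZ encodes an HMG-box chromatin protein (1101.24, 564 bp upstream) and chif an activator of the replication kinase Cdc7 (1077.75, 975 bp upstream). The others were nearest to CG9663, CG31635, Reph, lncRNA:CR44740 and, with 2 members, lncRNA:CR45643. The third strongest downstream intergenic member, near lncRNA:CR45737, came only at rank 632.

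More members lay downstream of their nearest TSS than upstream, but upstream DNA carried more of them per megabase (Mb). In the reproducible list 225 were upstream (46.7%, interval 42.2 to 51.2%) and 257 downstream. Taken alone, the replicates had upstream shares of 46.3%, 45.7% and 47.9%. The upstream share minus the downstream share was -6.72 ± 2.31 percentage points (SD, n = 3 replicates) and was negative in all 3. The two-sided exact permutation test over signs gave p = 0.25. That is the smallest p this permutation test can give with 3 replicates, so it cannot pass 0.05.

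The 2 sides do not offer the same amount of DNA. Upstream positions 500 to 1000 bp from the nearest TSS cover 5.41 Mb and downstream ones 8.03 Mb. Member density was 40.3, 40.3 and 44.9 summits per Mb upstream in the replicates, against 31.5, 32.3 and 32.9 downstream. The lowest upstream replicate was above the highest downstream one. The difference was 9.61 ± 2.13 per Mb (SD, n = 3). It was 9.57 in the reproducible list and 9.94 there when annotated mobile elements, which hold 3 member summits, were left out. The sides also differ in kind of DNA. Intron and intergenic DNA cover 1.64 and 2.26 Mb upstream, and 2.77 and 0.565 Mb downstream. Coding exons, 4.34 Mb of the band, had 1.61 members per Mb in the reproducible list. The density difference pools all kinds of DNA, and the part of their mix in it was not tested.

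Upstream density was highest next to the promoter boundary, and downstream density showed no such slope. Upstream it averaged 61.0 ± 4.95 per Mb at 500 to 600 bp, 41.6 ± 1.01 at 600 to 700 bp and 33.6 ± 3.78 at 900 to 1000 bp (SD, n = 3 each). Downstream the same bins had 29.7 ± 3.27, 34.1 ± 2.07 and 32.6 ± 2.45 per Mb. At 500 to 600 bp the replicates had 55.8, 61.6 and 65.7 per Mb upstream, against 27.1, 28.8 and 33.4 downstream, with no overlap. Farther out the reproducible list and the replicates differed. That list had 35.8 upstream and 35.9 downstream at 600 to 700 bp, 40.8 and 28.7 at 700 to 800 bp, and 28.3 and 34.7 at 900 to 1000 bp. For scale, the upstream bin at 100 to 200 bp had 256 ± 19.2 per Mb.

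**Figure D2:**
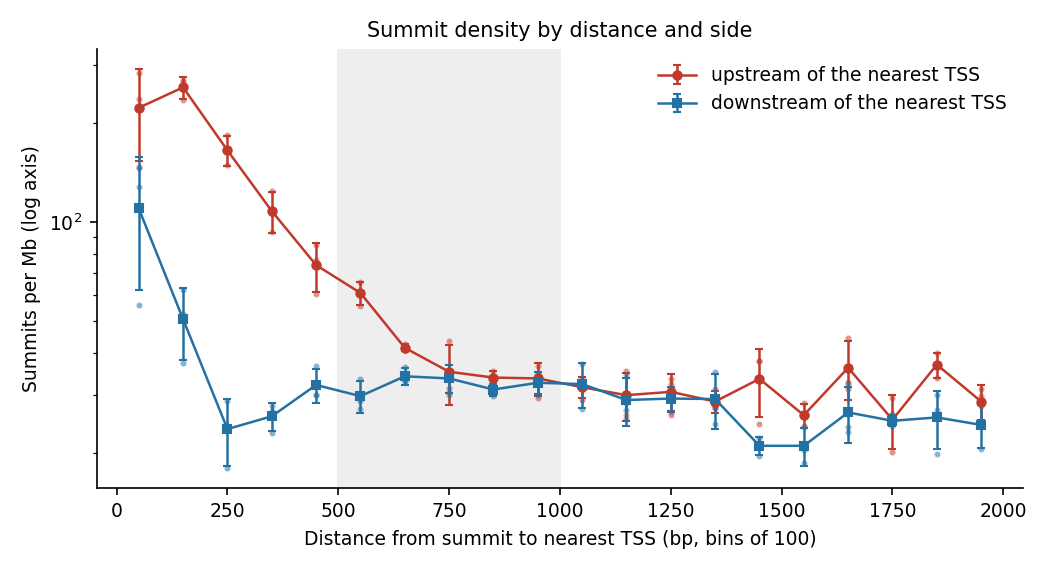
Summits per Mb of DNA (log axis) by distance from the nearest TSS (bp), upstream and downstream; large markers and bars are the mean ± SD of the 3 replicates, small dots the replicates, and the grey band marks 500 to 1000 bp. Inside the band upstream density is 61.0 at 500 to 600 bp and 33.6 at 900 to 1000 bp and downstream density stays between 29.7 and 34.1.

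As a class the members stood between promoter and distal DNA. Their density averaged 36.1 ± 1.44 per Mb, against 107 ± 13.8 in promoter DNA and 19.5 ± 2.25 in distal DNA (SD, n = 3 each). Members minus distal came to 16.6 ± 0.836 per Mb and was positive in all 3 replicates. The band is 13.4 Mb, or 10% of the arms, and held 10.9% of the reproducible peaks.

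Introns held most members. In the reproducible list 317 were in introns (65.8%, interval 61.3 to 70.0%) and 104 in intergenic DNA (21.6%, interval 18.0 to 25.5%). The other 61 were in exons of noncoding transcripts (25), 5′ UTRs (22), 3′ UTRs (7) and coding exons (7). The intron share was 66.2%, 67.1% and 63.7% in the replicates, against intergenic shares of 22.5%, 20.8% and 25.8%. The difference of 42.6 ± 4.33 percentage points was positive in all 3, with p = 0.25 in the two-sided exact permutation test.

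Introns also led per Mb. Intron density in the band was 70.7, 72.6 and 73.2 summits per Mb in the replicates, against 37.5, 35 and 46.4 in intergenic DNA. The groups did not overlap, and the difference was 32.5 ± 5.36 per Mb (SD, n = 3). Coding exons, which make up 4.34 Mb of the band, had 1.61 members per Mb in the reproducible list, and 3′ UTRs 7.24. The 5′ UTRs had 49.4 and exons of noncoding transcripts 54.6.

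Promoters of the reproducible list had the opposite order, with 133 summits per Mb of intron and 193 of intergenic DNA. Distal DNA had 28.5 in introns and 17.8 in intergenic DNA. Intron density was higher in the band than in distal DNA by 44.4 ± 2.66 per Mb, and intergenic density by 22.5 ± 4.32 per Mb (SD, n = 3 each).

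**Figure D3:**
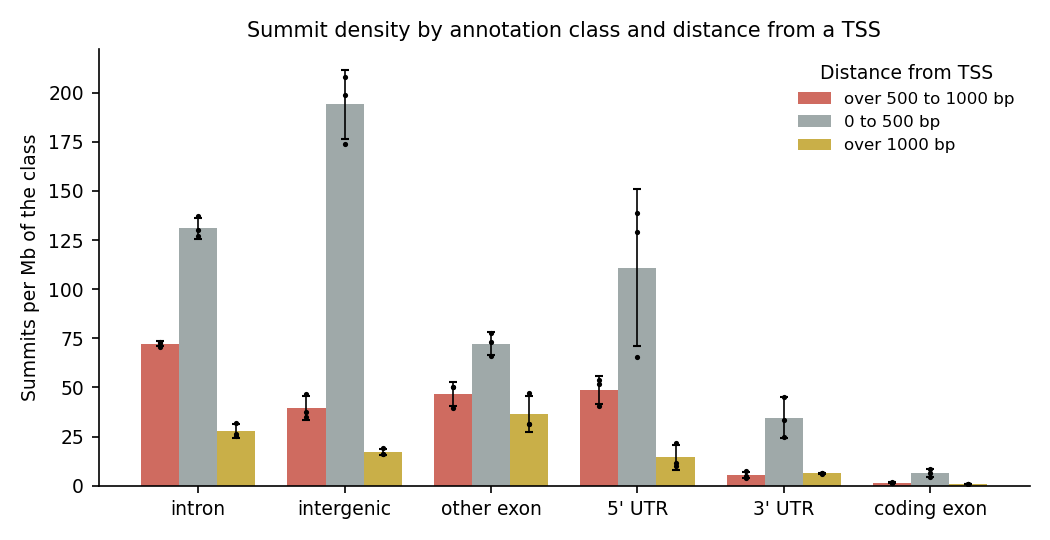
Summits per Mb of DNA by class of DNA for members, promoter peaks and distal peaks; bars are the mean of the 3 replicates, error bars the SD and dots the replicates. Intron bars of members, mean 72.2, stand above their intergenic bars, mean 39.6.

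The sides of intergenic and intron members were close to those of the DNA itself. Of the 104 intergenic members 82.7% were upstream, and upstream DNA made up 2.26 of the 2.83 Mb of intergenic DNA in the band. Of the 317 intron members 39.4% were upstream, and of the 4.41 Mb of intron 1.64 Mb was. Of the 125 upstream intron members, 89 (71.2%) were inside the gene of their nearest TSS, that is, between an earlier promoter of the gene and a later one. Among the 192 downstream intron members 183 (95.3%) were in that gene, and 106 (55.2%) followed its first TSS.

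Within introns the upstream excess was not steady. Upstream introns had 70.7, 72.5 and 78.0 summits per Mb in the replicates, and the upstream minus downstream differences were -0.157, -0.136 and 7.51. The direction thus differed between replicates. Outside annotated mobile elements the differences were 0.829, 1.24 and 8.72, positive in all 3 but with an SD of 4.44 that exceeds their mean. In intergenic DNA the upstream minus downstream differences were 11.5, 12.9 and 0.494, and outside mobile elements 11.7, 12.1 and -0.909.

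The signal of members differed little by side or class. Its median was 236.787 in the reproducible list, with quartiles of 179.995 and 379.571 and a range of 147.814 to 4738.65. Upstream members had a median of 240.736 and downstream ones 232.64. The log2 ratio of medians was 0.09, 0.12 and -0.02 in the replicates, with a mean of 0.06 ± 0.08 (SD, n = 3, two-sided exact permutation p = 0.5). The spread exceeded the mean, and the sign was not the same in every replicate.

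Intron members had a median signal of 243.27 and intergenic ones 230.228. Here the log2 ratio was 0.01, -0.09 and 0.15 in the replicates, or 0.02 ± 0.12 (SD, n = 3, two-sided exact permutation p = 0.75). Members against promoter peaks, with medians of 236.787 and 237.474, gave -0.05 ± 0.12 with p = 0.75 in the same exact test. Members against distal peaks, whose median was 222.232, gave 0.05, 0.06 and 0.09, or 0.07 ± 0.02 (exact permutation p = 0.25), positive in 3 of 3 replicates. The members' signal was also nearly unrelated to distance from the TSS, with a Spearman rho of -0.0622 over the 482 peaks of 1 list.

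**Figure D4:**
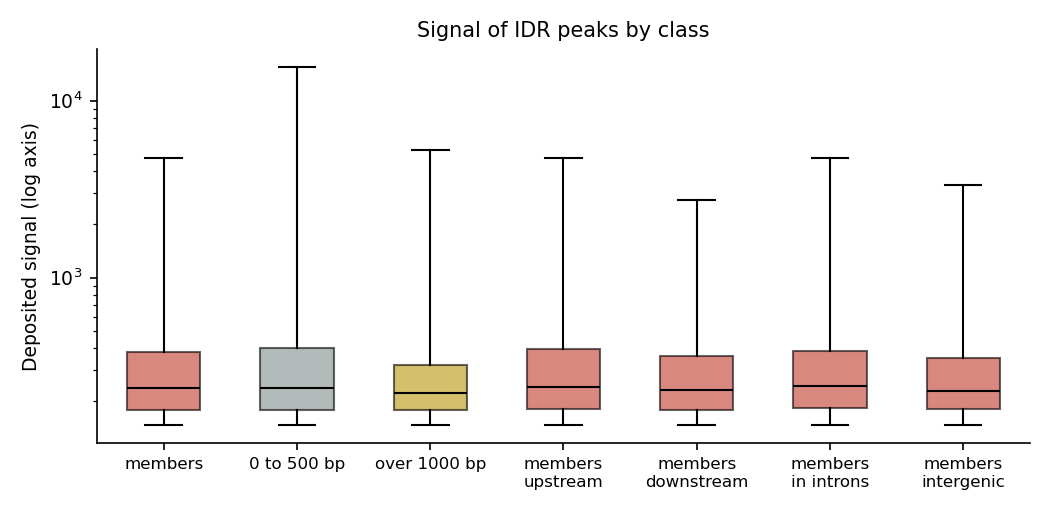
Deposited signal (log axis, scale not stated) in the reproducible list by side and class of members, with promoter and distal peaks; boxes are quartiles, lines medians and whiskers the lowest and highest peak. The median is 240.736 upstream and 232.64 downstream.

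The share of strong peaks among members was close to that of the whole list. The 443 strongest peaks of the list included 52 members (10.8%), against 268 promoter peaks (14.2%) and 123 distal peaks (5.98%), and they are 10% of all reproducible peaks. Of the upstream members 27 and of the downstream members 25 were among them. These counts describe 1 list and were not tested over replicates.

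Members recurred in the replicates about as often as other peaks. All 3 replicates had a match among their strongest 4426 peaks for 272 of 482 (56.4%, interval 51.9 to 60.9%), and the share over all reproducible peaks was 56.0%. The share was 57.8% upstream and 55.3% downstream, 59.0% in introns and 54.8% in intergenic DNA. By replicate the members were matched in 73.7%, 80.1% and 84.0%, promoter peaks in 81.2%, 84.6% and 74.6%, and distal peaks in 72.9%, 79.0% and 85.5%. Replicate 3 was thus the best match for members and distal peaks alike, and the poorest for promoter peaks.

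Matching followed signal. Members matched in all 3 replicates had a median signal of 343.705, and the others 175.427 with a highest value of 408.848. In the relaxed lists of 30000 peaks per replicate, 467 members had a match in all 3, and over these the ranks of replicates 1 and 2 had a Spearman rho of 0.746, replicates 1 and 3 of 0.655, and replicates 2 and 3 of 0.718. The 5 members with no match among the strongest 4426 of any replicate were nearest to Cka, lncRNA:CR32218, lncRNA:CR43785, CG18135 and cpo, named here after their values were seen.

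Member summits as a whole were poorer in G and C than their surroundings, although the 27 with the word were not. The GC content of the 101 bp at the summit was 37.3%, 37.0% and 33.8% in the replicates, against 41.9%, 42.5% and 43.6% in flanks 350 bp away. The difference averaged -6.61 ± 2.85 percentage points (SD, n = 3) and was negative in 3 of 3, with p = 0.25 in the two-sided exact permutation test. In the reproducible list it was -6.72 upstream and -8.22 downstream, against -8.42 at promoter peaks and -9.37 at distal peaks.

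**Figure D5:**
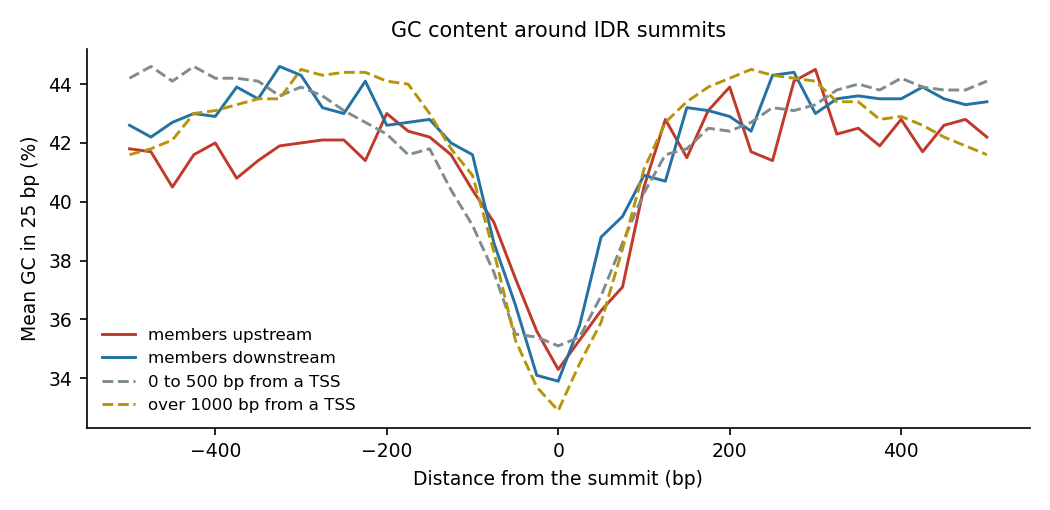
Mean GC content (%) in 25 bp steps around the summit (bp) in the reproducible list, for upstream members, downstream members, promoter peaks and distal peaks. All 4 curves dip at the summit, where members as a whole reach 34.1%.

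Of 9 motifs of known fly factors and promoters, searched on both strands, TATAAA had the largest difference between member summits and flanks. This TATA word was at 22.2% of summits and 9.44% of flanks, and at 11.2% of all windows in the band. It was at 18.5%, 19.5% and 23.5% of summits in the replicates, and at 22.0% of all reproducible peaks, so it was not particular to members. GAGAGAG, read by the GAGA factor, was at 1.87% of summits and 4.56% of flanks, and at 1.21% of all windows in the band. The exact 95% interval of the summit share, 0.857 to 3.51%, includes the band share and not the flank share. The word was lower at summits than at flanks in each replicate.

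The remaining motifs gave small differences. The homeodomain word TAATTA was at 7.68% of summits and 7.05% of flanks, the E-box CAGCTG at 4.56% and 4.05%, and TGANTCA, the AP-1 word, at 2.90% and 2.49%. CACGTG was at 0.622% and 1.56%, CAGGTAG, the word of the early activator Zelda, at 0.207% and 0.519%, and GGTCACAC at 0.207% of both. TATCGATA, a promoter element of replication genes, was at 0 of 482 summits, which allows up to 0.762%, while 1.96% of promoter summits held it. For these words the shares of all windows in the band were 5.93% for TAATTA, 4.82% for CAGCTG and 2.13% for TGANTCA. They were 1.25% for CACGTG, 0.633% for CAGGTAG, 0.137% for GGTCACAC and 0.196% for TATCGATA.

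The 5 words of 8 letters ranked highest in all other reproducible peaks were all made of A and T. In the reproducible list each was more frequent at member summits than at flanks: TAAATAAA at 5.19% and 2.49%, AAATATAT at 4.77% and 2.28%, AAAATTAA at 4.56% and 2.07%, ATTTAAAA at 3.94% and 3.22%, and ATAAAATA at 2.70% and 1.97%. The last pair had small and unsteady differences: ATAAAATA was at 2.10% of summits and 2.31% of flanks in replicate 2, and at upstream members ATTTAAAA was at 4.0% and 4.22% and ATAAAATA at 2.67% and 2.89%. Between 2.02% and 2.75% of all windows in the band hold 1 of these words. They overlap the TATA word and the low GC content in what they count.

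Most members were nearest to a coding gene, as most genes are coding. For 389 members (80.7%) the nearest TSS belonged to a protein-coding gene, for 86 to a noncoding RNA gene, for 6 to a tRNA gene and for 3 to a small nucleolar RNA gene, with a tie counted under each type. In all, 455 genes were nearest to a member, 363 of them protein-coding, which is 2.60% of 13945 coding genes. The annotation of the main arms has 18164 genes in all. By comparison, 14.8% of coding genes were bound at a promoter, with a reproducible summit no farther than 500 bp from any of their TSSs.

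Among the lists of developmental and cellular genes, the EGF receptor list had 4 genes nearest to a member and the BMP list 3. Each other list had 0 to 2. EGF receptor signalling passes from ligands such as Krn through the kinase Raf to the ETS factors pnt, an activator, and aop, a repressor. These 4 of the 18 listed genes (22.2%) were nearest to a member, against 2.60% of all coding genes. Coding genes nearest to a member had more TSSs and were longer than coding genes at large, and the part of this in the list counts was not tested. Raf had 2 members, 846 bp downstream in a 5′ UTR with a signal of 432.888 and 724 bp upstream in intergenic DNA with 211.689. Krn had 356.926, pnt 242.761 and aop 175.453, and the aop member was not matched in all 3 replicates.

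In BMP signalling 3 of 15 listed genes were nearest to a member, each acting in the nucleus. Mad, the transducer that enters the nucleus, had a member at a signal of 678.753 in an intron 659 bp upstream of a TSS, with ranks of 264, 457 and 305 in the replicates. It had a second at 181.597, not matched in all replicates. The repressor brk had 2 members 208 bp apart, at 535.464 and 358.81. Both matched the same peak of replicate 1 and the same peak of replicate 3, so that they do not count as separate there. The zinc finger factor shn had 1 at 189.038.

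Other lists held 0 to 2 such genes. The Wnt and Hedgehog list had fz2, a Wnt receptor, and sgg, the GSK3 kinase, out of 22. The fz2 member, 968 bp upstream in an intron, had a signal of 973.142 and carried the word shown above. The Hox list had Abd-B out of 8. The Polycomb and Trithorax list had ph-d, a Polycomb protein, with 847.463, and Trl, the GAGA factor, with 246.333, out of 21. The cell cycle list had CycE, which drives entry into S phase, with 361.971, and Cdk4 with 190.59, out of 20. The CycE and Cdk4 members were not matched in all replicates.

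No listed gene was nearest to a member for ribosomal proteins (0 of 92), nuclear receptors (0 of 19), actin regulators, myosin, kinesin and tubulin (0 of 18), Notch signalling (0 of 15) or gap and pair-rule genes (0 of 15). These zeros depend on using TSSs of every gene type, since a noncoding TSS can be nearer. The member by lncRNA:CR45243 was 747 bp from a TSS of fng, a gene of the Notch list. The member by lncRNA:CR46322 lay inside Hr3, a listed nuclear receptor gene. Dl, of the Notch list, could not be looked up. The cytoskeletal list leaves out many such genes, Tm1 and Actn among them, which did have a member. Of the ribosomal protein genes 59 (64.1%) had a promoter summit, which by itself does not exclude a summit in the band. At 2.60% of all coding genes, lists of this size would hold few such genes, and the counts are descriptions.

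Many members belonged to genes that were also bound at a promoter. The nearest gene had a promoter summit for 149 of 482 members (30.9%), 29.3% of the upstream and 32.3% of the downstream ones, against 34.9% of the 1458 distal summits inside genes. Of the 363 coding genes, 121 (33.3%) had one, against 14.8% of all coding genes. The 363 genes also had more annotated TSSs, with a mean of 2.60 against 1.41 over all coding genes, and were longer, with medians of 10629 and 2166 bp. The part of TSS number and gene length in the higher share was not tested.

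Members also had neighbours. Another reproducible summit was within 1000 bp of 118 members (24.5%), against 18.6% of promoter and 19.0% of distal peaks, and for 56 members (11.6%) that neighbour was stronger. For 34 members it was 199 to 231 bp away, less than the 416 bp width of most members. There were 32 genes with 2 or more members, and CAP and NFAT had 3 each. NFAT, a transcription factor, had all 3 upstream, at ranks 1272, 1536 and 2707. The first 2 of these were 207 bp apart, and that at rank 1536 had no match in replicates 2 and 3, even in the relaxed lists. Likewise 2 of the CAP members were 207 bp apart and matched the same peak of replicate 2. The 2 members of HmgZ matched 1 peak of replicate 3, as did the 2 of CG9663. Such members may not be separate sites. Diap1, an inhibitor of cell death, had 1 member downstream of a TSS, at rank 630, and 1 upstream of another TSS, at rank 2800. LanA, a laminin subunit, Xrp1, a stress-response transcription factor, and the SREBP lipid regulator were among the other genes with 2. The SREBP members were 199 bp apart and matched the same peak in each of the 3 replicates, so that they do not count as separate there.

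Peaks just inside and outside the limits had similar signals. The members nearest to 500 bp were at 501 bp by lncRNA:CR44517 (203.25) and at 502 bp by lncRNA:CR46322 (275.434), and the promoter peaks at 500 bp were by CG43736 (429.08) and kug (248.999). At the outer limit, members at 999 bp by C3G (219.918) and 997 bp by CAP (170.253) faced distal peaks at 1001 bp by lncRNA:CR43334 (436.088) and nudC (294.243). Over 50 bp on each side of the limits, the median was 230.703 for the 81 members inside the inner limit and 223.312 for 81 promoter peaks. It was 210.554 for the 35 members inside the outer limit and 224.662 for 49 distal peaks.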

How the data were processed

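The authors deposited a peak list for each of 3 biological replicates, a pooled list and a list of reproducible peaks (IDR, irreproducible discovery rate) on the dm6 build, per the file headers. The sources used here do not give the aligner, the peak caller, the IDR threshold or the depth of reading. Each deposited signal is the authors' own value on a scale that is not stated, and it was used only to rank or describe peaks within a list. Relaxed lists hold 30000 peaks per replicate, and the replicates taken alone are the strongest 4426 on the 6 main arms. Per the file headers and the texts deposited with them, 1 control alignment served every list.

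TSSs and gene classes came from Ensembl release 115, and bases from the dm6 assembly as RefSeq distributes it. Summits were set against the nearest TSS, and density was the number of summits per Mb of DNA of the same class. Shares have exact 95% Clopper-Pearson intervals. Differences over replicates have mean ± SD and a two-sided exact permutation test over signs. The members, the gene lists and the motifs were chosen with earlier results of these data known. The search for ACAGGGT and ACAGGGTG and the density outside mobile elements were added after seeing the data, as were the share of distal summits inside genes, the count of TSSs per gene and gene lengths. Genes named are those of the 20 strongest members matched in every replicate, the 3 strongest in each side and class, the 2 nearest each distance limit with the 2 nearest peaks outside it, list genes, and genes with 2 or more members. Of the Notch list 1 gene, Dl, was not matched to the annotation. The scripts were tested on simulated data, where a planted word ranked first in 20 of 20 sets. There 1000 of 1000 planted summits had the right distance, side and distance group (promoter, member or distal). The assignment to introns, exons or intergenic DNA was not part of that test. Python 3.11.15, numpy 2.4.6, pandas 2.3.3, scipy 1.17.1 and matplotlib 3.10.9 were used.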

Additional observations from a re-analysis of the deposited data

How the results depend on the processing

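Of 299 values recomputed over 19 settings, 191 counted as unchanged, 100 moved and 8 changed sign. Leaving out a replicate meant keeping the reproducible peaks matched in the other 2 replicates. Since matching followed signal, this also keeps stronger peaks. The rule for unchanged differed by kind of value. Counts had to stay within 1.5 times, and densities, motif shares and second-peak shares within 1 SD of the replicates. The match share had to stay inside its interval. For the tested differences in share, signal and GC only the sign was compared, so they may have changed in size. The upstream minus downstream share (-11.1 to -3.30) and the intron minus intergenic share (37.9 to 50.5) kept their direction in every setting run. So did the GC difference (-9.85 to -4.53) and the log2 signal of members minus distal peaks (0.0549 to 0.193). The same held for the density differences upstream minus downstream (4.95 to 13), with all kinds of DNA together, and intron minus intergenic (20.7 to 37.5). Those that changed sign were signal differences. Intron minus intergenic was -0.00183 with coding TSSs alone and -0.0885 in replicate 2. Members minus promoter was 0.0149 at 600 to 900 bp, 0.0463 in replicate 2, 0.000792 with 1 summit per interval and -0.145 to 0.0483 leaving out a replicate. Upstream minus downstream was -0.0247 in replicate 3 and -0.0399 to 0.107 leaving out a replicate. The cause was not tested. The share of members with ACAGGGT was 3.94 to 9.09% over 12 settings, against 5.60% in the main setting. Leaving out a replicate, it was 6.91 to 8.25%. For ACAGGGTG the share was 3.11 to 7.11%, against 4.36% in the main setting. Leaving out a replicate, that share was 5.41 to 6.60%, the highest without replicate 3. Kept to the 50% of peaks with the highest signal, the list had 253 members, 18.8 per Mb, 92.9% matched, 20.6% with a promoter summit at the gene and 2 motifs of 9 more frequent at summits than flanks. The band 600 to 900 bp had 270 members, 33.5 per Mb and 8 list genes. Reciprocal overlap of 50% gave a match of 44.4%. Replicate 2 alone had 36.9% with a promoter summit, and replicate 3 alone 37.7 per Mb. Leaving out a replicate kept 2962, 2797 and 2912 peaks, with 303 to 333 members, 22.5 to 24.8 per Mb, 20 to 24.1% with a promoter summit and 2 to 3 motifs, where fewer peaks lower the counts. The match share could not be computed for replicates alone or left out. No paired analysis was possible because all samples form 1 group. Depth is unknown, so faint binding cannot be judged, and the replicates left out still shaped the lists.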

Other observations

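Members were spread over the arms much as the other peaks were. There were 101 on 2L (21.0%, against 19.2% of all reproducible peaks), 87 on 2R (18.0% and 17.2%), 97 on 3L (20.1% and 23.0%), 111 on 3R (23.0% and 24.2%), 82 on X (17.0% and 16.0%) and 4 on chromosome 4. The 7 coding-exon members lay near asRNA:CR46005, sgg, CG15674, Tim17b1, Sgs3, CG13737 and CG10459, named after their values were seen.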
